A study of Mus musculus with 9 samples.

Results

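A set of 10 genes that act in, or respond to, the feedback control of the ERK pathway was examined in 9 female mouse embryonic stem cell (mESC) lines. The set holds the Sprouty genes Spry4, Spry2 and Spry1, the related Spred1 and Spred2, the dual specificity phosphatases Dusp6, Dusp4 and Dusp9, and the ETS transcription factors Etv4 and Etv5. Members were found by gene symbol, taking every transcript cluster of the array (a group of probes summarised as 1 value) whose annotation gave 1 of these symbols alone. This gave 12 clusters for the 10 genes, with 2 clusters each for Spred2 and Etv5, out of 35556 clusters on the array and 23410 with an annotated gene. The set was selected on the measured level of Spry4, known to be low in 1 group of these same lines, so the differences of the members between that group and the others are given as a description, without a test. All 12 clusters lay at or above the median level of the clusters with a gene.

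ERK is the last kinase of the cascade that carries fibroblast growth factor signals from receptors at the membrane through RAS, RAF and MEK. Signaling through it switches on its own brakes: Sprouty and Spred proteins act upstream on RAS and RAF, dual specificity phosphatases remove phosphate from ERK itself, and Etv4 and Etv5 are transcription factors whose transcripts follow the activity of the pathway. In mESC, autocrine Fgf4 drives ERK signaling and moves the cells out of self-renewal towards differentiation, which is why an inhibitor of MEK is part of the medium used to keep them naive.

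The groups differed in how the embryos that gave the lines were produced, and the question was whether the stem cells kept a trace of it. The mESCWM lines (WM1 to WM3) came from embryos made by in vitro fertilization (IVF) and grown to blastocysts in Whitten's medium under 20% O2. For the mESCKAA lines (KAA1 to KAA3) the IVF embryos were instead grown in KSOM medium with amino acids under 5% O2. The mESCFB lines (FB1 to FB3) were started from embryos of natural matings that hormone-stimulated females carried to the blastocyst stage, when they were flushed from the uterus. All 9 lines were C57BL/6, were typed as female, and were derived from single blastocysts in the same way, on feeder fibroblasts in serum medium with LIF and the inhibitors CHIR99021 and PD0325901, the last of which blocks MEK. They were moved to gelatin to remove the feeders and collected at the eighth passage. Whether the MEK inhibitor was still in the medium at that passage is not given in the sources used here. Each line was a separate derivation measured on 1 array, so the spread between the 3 lines of a group holds differences between embryos, derivations and arrays.

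Levels are log2 values, in which a difference of 1 is a doubling, and precision is limited by having 1 array per line. The lines were close to each other, with Pearson's r of 0.990 to 0.996 between any 2 of them across the clusters with a gene. In addition, 3 sets of lines stood apart on genes outside the set. The mean level of 11 primitive endoderm markers (such as Gata6, Gata4 and Sox17) was 6.06 in KAA1 and 5.72 in FB1, and between 4.63 and 4.93 in the other 7 lines. X-linked genes were shifted upwards in FB2 and FB3, as described with Dusp9 below. The Y-linked Eif2s3y stood at 5.19 in WM3, 3.72 in KAA2 and 4.78 in FB1, and between 1.77 and 2.20 in the other 6 lines, although all 9 are labelled female. The mean of 10 mESC markers was between 7.20 and 8.01 in mESCWM, 7.18 and 7.56 in mESCKAA, and 7.39 and 7.88 in mESCFB. Pou5f1 was between 10.07 and 10.43 in all lines. It was lower in mESCWM than in mESCFB without overlap, with a difference of -0.26 (limma, adjusted p = 0.819). Prdm14 was the lowest marker, at 5.65 in WM2, 5.03 in FB2 and 3.90 to 4.28 in the other lines. The median level of clusters with a gene was 4.67. Fibroblast markers would show leftover feeders. Means of 19 such markers were 5.20 to 5.32 in mESCWM, 5.09 to 5.26 in mESCKAA and 5.02 to 5.09 in mESCFB. On the mean, 15 of them were higher in mESCWM than in mESCFB and 4 lower, where 48.3% of all clusters were lower. The largest differences were those of Acta2, Fn1, Vim and Tagln, and only Acta2 and Vim were free of overlap. The lower markers were Col6a2, Col6a3, Lum and Dcn, so the markers did not shift as 1 set. Means of 8 trophectoderm markers overlapped between the groups, at 6.65 to 6.95 in mESCWM, 6.76 to 7.24 in mESCKAA and 6.71 to 7.00 in mESCFB. The part of such cells in the levels of the members was not tested. In such bulk samples, fewer cells of a type and less RNA per cell cannot be told apart.

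Spry4, the member behind the choice of the set, encodes a Sprouty protein that is induced by growth factors and restrains RAS to ERK signaling, and lies on chromosome 18. Its level was 6.98, 7.28 and 7.57 in WM1, WM2 and WM3, against 8.61, 8.35 and 8.48 in KAA1, KAA2 and KAA3 and 8.55, 8.39 and 8.55 in FB1, FB2 and FB3. The 3 mESCWM lines lay below all 6 others, with no overlap, and were further apart from each other than the lines of the other groups. Means were 7.28 ± 0.29 in mESCWM, 8.48 ± 0.13 in mESCKAA and 8.50 ± 0.092 in mESCFB (SD, n = 3 each). On the log2 scale, mESCWM minus mESCFB was -1.22 (SE 0.145) and mESCWM minus mESCKAA was -1.20 (SE 0.145), or 2.33-fold and 2.30-fold lower levels in mESCWM. Spry4 moved little between mESCKAA and mESCFB, which the choice of the gene did not rest on: the difference was -0.020, with a 95% interval of -0.35 to 0.31 (limma, adjusted p = 0.994).

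**Figure D1:**
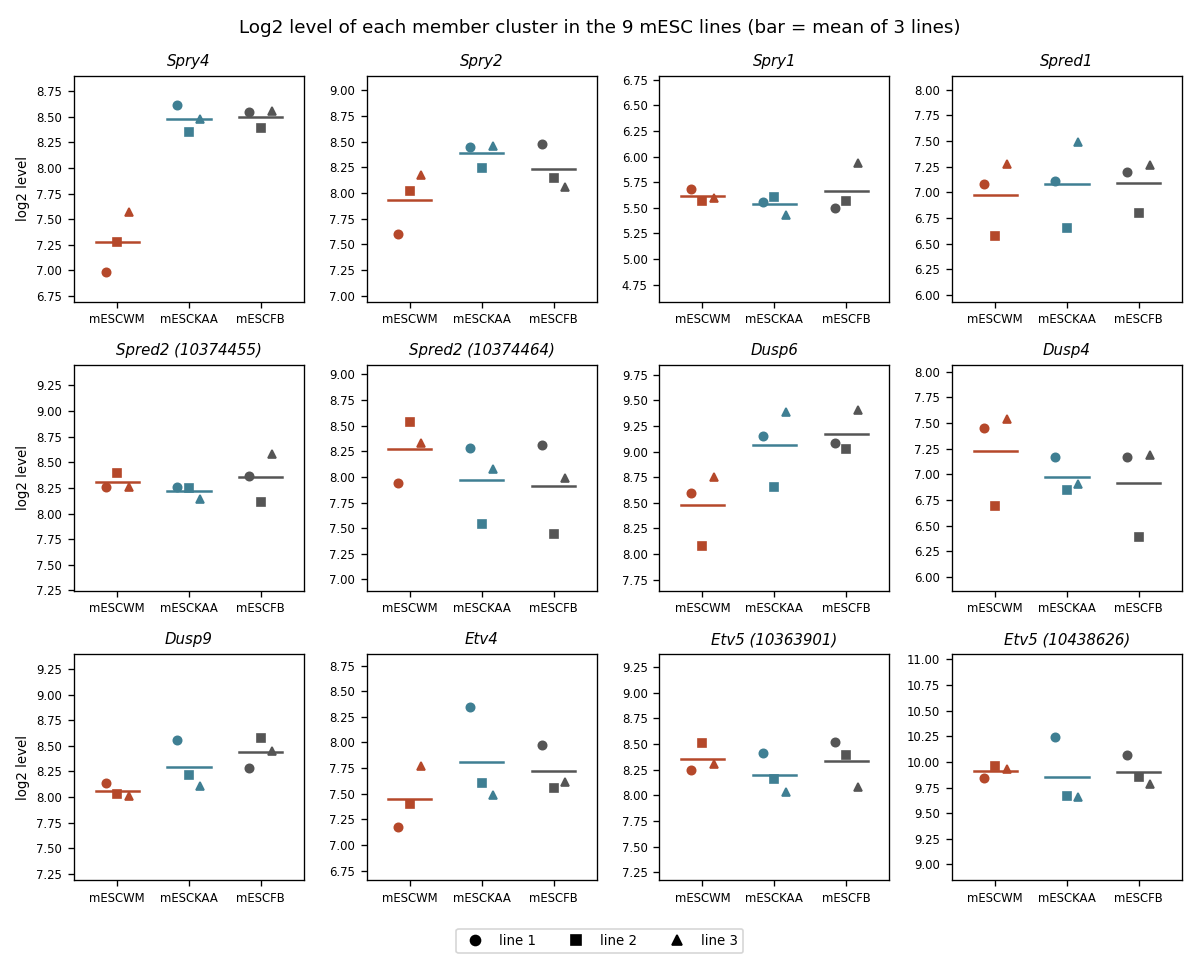
Log2 level of each member cluster in the 9 mESC lines, with mESCWM, mESCKAA and mESCFB from left to right, 1 point per line (circle, square and triangle for the lines numbered 1, 2 and 3) and a bar at the mean of 3 lines. Each panel spans the same range on the log2 scale around its own level. The mESCWM points lie below those of both other groups for Spry4 and below those of mESCFB for Dusp6 and Dusp9, while most other members overlap between groups.

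Spry2, the Sprouty gene on chromosome 14, was likewise lowest in WM1. It was at 7.60, 8.02 and 8.18 in WM1, WM2 and WM3, against 8.45, 8.25 and 8.46 in KAA1, KAA2 and KAA3 and 8.48, 8.15 and 8.06 in FB1, FB2 and FB3. The mESCWM lines lay below all mESCKAA lines, but WM3 was above both FB2 and FB3. The difference of the means was -0.45 (SE 0.164) for mESCWM minus mESCKAA and -0.30 (SE 0.164) for mESCWM minus mESCFB. WM1 lay well below every other line, and without it the differences were -0.29 and -0.13 in the same order.

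Spry1, on chromosome 3, was nearly flat, with 5.68, 5.57 and 5.60 in WM1, WM2 and WM3, 5.56, 5.61 and 5.43 in KAA1, KAA2 and KAA3, and 5.50, 5.57 and 5.94 in FB1, FB2 and FB3. All groups overlapped, and FB3 was the highest line. Its differences were -0.054 for mESCWM minus mESCFB and 0.082 for mESCWM minus mESCKAA (SE 0.117 each).

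Sequence before the start of the gene was looked up for the members in the RefSeq promoter table (build GRCm38.p6, windows of 300 bases that begin 250 bases before the start), which matched Spry2, Spry1, Spred1, Spred2, Dusp6 and Etv5, the last with 2 starts, and has no entry for Spry4, Dusp4, Dusp9 and Etv4. The 250 bases before the start of Dusp6 and Spry2 are printed because, of the members with an entry, these had the lowest levels in mESCWM relative to the other groups, and those of Spred2 as a related inhibitor that did not. Each runs 5′ to 3′ on the strand of the gene, over chr10:99262981-99263230 (plus strand) for Dusp6, chr14:105896820-105897069 (minus strand) for Spry2 and chr11:19924192-19924441 (plus strand) for Spred2. Capitals mark the match to the core of the cyclic AMP response element (CRE).
Dusp6: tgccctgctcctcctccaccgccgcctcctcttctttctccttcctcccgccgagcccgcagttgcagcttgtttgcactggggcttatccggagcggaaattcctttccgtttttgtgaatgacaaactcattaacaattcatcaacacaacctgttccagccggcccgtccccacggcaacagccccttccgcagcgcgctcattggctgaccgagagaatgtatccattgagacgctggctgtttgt
Spry2: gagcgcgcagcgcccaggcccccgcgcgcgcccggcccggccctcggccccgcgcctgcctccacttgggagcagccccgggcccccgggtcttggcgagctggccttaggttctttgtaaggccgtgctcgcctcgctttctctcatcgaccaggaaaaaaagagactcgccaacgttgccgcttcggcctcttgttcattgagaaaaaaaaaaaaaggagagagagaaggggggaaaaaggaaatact
Spred2: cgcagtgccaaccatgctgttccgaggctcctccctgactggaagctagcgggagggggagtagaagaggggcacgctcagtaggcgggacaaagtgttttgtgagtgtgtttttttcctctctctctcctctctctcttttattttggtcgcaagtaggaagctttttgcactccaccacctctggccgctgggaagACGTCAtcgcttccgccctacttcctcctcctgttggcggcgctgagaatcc
The windows were searched on both strands for the ETS core CCGGAA, AP-1 (TGANTCA), the CRE core (TGACGT), the CArG box, a STAT site (TTC and GAA with 3 bases between) and the TCF core CTTTGA, of which the ETS core and the STAT site can share bases. Of the 7 member windows, 1 held the ETS core, that of Spry2 at bases 34 to 39 after the start (chr14:105896770-105896798, minus strand, with the core in capitals).
Spry2 site: aggtcatctatcCCGGAAtccgggagggt
Another window, that of Spred2, held the CRE core TGACGT on the minus strand 52 to 47 bases before the start, and none held the other motifs. Among all 32851 windows of the table, 14.9% held the ETS core, 7.81% AP-1, 7.51% the CRE core, 1.63% the CArG box, 8.3% the STAT site and 16% the TCF core. A match is a run of letters and does not show that a factor binds there.

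The Spred proteins, which join a Sprouty-like domain to an EVH1 domain and bring neurofibromin to RAS, showed no common shift. Spred1, on chromosome 2, was at 7.09, 6.58 and 7.27 in WM1, WM2 and WM3, at 7.11, 6.65 and 7.49 in KAA1, KAA2 and KAA3, and at 7.20, 6.80 and 7.26 in FB1, FB2 and FB3. The 3 groups covered nearly the same range, and the line numbered 2 was the lowest in each. mESCWM minus mESCFB was -0.11 and mESCWM minus mESCKAA was -0.11 (SE 0.246 each).

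Spred2, on chromosome 11, was measured by 2 clusters that did not run together closely. Cluster 10374455 was steady, at 8.26, 8.40 and 8.26 in WM1, WM2 and WM3, 8.26, 8.25 and 8.14 in KAA1, KAA2 and KAA3, and 8.37, 8.12 and 8.58 in FB1, FB2 and FB3. Cluster 10374464 varied more, at 7.94, 8.54 and 8.33 in WM1, WM2 and WM3, 8.28, 7.54 and 8.08 in KAA1, KAA2 and KAA3, and 8.31, 7.44 and 7.99 in FB1, FB2 and FB3. Groups overlapped in both, and KAA2 and FB2 were low in the second. For mESCWM minus mESCFB the first gave -0.048 (SE 0.116) and the second 0.35 (SE 0.265), so that the clusters differed in sign. For mESCWM minus mESCKAA they gave 0.090 and 0.30. Over the 9 lines their Pearson's r was 0.40, and the accessions of the second cluster do not include the curated RefSeq transcript that the first carries.

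Dusp6, on chromosome 10, encodes the cytoplasmic phosphatase that acts on ERK and is a common readout of the activity of the pathway. It was at 8.60, 8.08 and 8.75 in WM1, WM2 and WM3, against 9.16, 8.65 and 9.39 in KAA1, KAA2 and KAA3 and 9.08, 9.02 and 9.41 in FB1, FB2 and FB3. The mESCWM lines lay below all mESCFB lines, and overlapped with mESCKAA through KAA2 alone, which was below WM3. Means were 8.47 ± 0.35 in mESCWM, 9.06 ± 0.37 in mESCKAA and 9.17 ± 0.21 in mESCFB (SD, n = 3 each). The difference was -0.70 (SE 0.227) for mESCWM minus mESCFB, a 1.62-fold lower level, and -0.59 (SE 0.227) for mESCWM minus mESCKAA, a 1.51-fold lower level, and without WM2 they were -0.50 and -0.39. After Spry4 the differences over all 9 lines were the lowest of any member in both comparisons. Without FB1, KAA2 and WM3, the lines with the highest Eif2s3y, they became -0.88 and -0.93, and the cause of the change was not tested.

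Dusp4, a nuclear phosphatase of the same family on chromosome 8, ran the other way on the mean. It was at 7.45, 6.69 and 7.54 in WM1, WM2 and WM3, at 7.16, 6.85 and 6.90 in KAA1, KAA2 and KAA3, and at 7.17, 6.39 and 7.19 in FB1, FB2 and FB3. WM1 and WM3 were above all other lines, but WM2 was below all lines except FB2. The differences of 0.31 for mESCWM minus mESCFB and 0.25 for mESCWM minus mESCKAA were close to their SE of 0.272.

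Dusp9, an X-linked phosphatase that acts on ERK and is known in female mESC for lowering its activity when both X chromosomes are active, was at 8.14, 8.03 and 8.01 in WM1, WM2 and WM3, against 8.56, 8.22 and 8.11 in KAA1, KAA2 and KAA3 and 8.29, 8.57 and 8.45 in FB1, FB2 and FB3. The mESCWM lines lay close together below all mESCFB lines, and KAA3 lay between WM1 and WM2. Means were 8.06 ± 0.070 in mESCWM, 8.29 ± 0.24 in mESCKAA and 8.44 ± 0.14 in mESCFB (SD, n = 3 each). mESCWM minus mESCFB was -0.37 and mESCWM minus mESCKAA was -0.23 (SE 0.127 each), and the second was -0.099 without KAA1.

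Because Dusp9 is X-linked, its level was set beside that of the other X-linked genes of each line. For each line, the median deviation of 350 X-linked clusters from their means over the 9 lines was taken, minus that of 10550 autosomal clusters, all of a single symbol and at or above the median level. This X-linked deviation was -0.014, -0.044 and -0.084 in WM1, WM2 and WM3, -0.048, -0.099 and -0.054 in KAA1, KAA2 and KAA3, and -0.047, 0.29 and 0.14 in FB1, FB2 and FB3. FB2 and FB3 thus had higher X-linked levels than the other 7 lines, and FB1 did not. The median difference of 351 X-linked clusters, Dusp9 included, was -0.20 for mESCWM minus mESCFB, against -0.0060 for autosomal clusters, and 18.5% of the X-linked clusters were lower than Dusp9 in that comparison. For mESCWM minus mESCKAA the X-linked median was 0.024 and the autosomal one 0.019, and 6.55% of the X-linked clusters were lower than Dusp9. For mESCKAA minus mESCFB the X-linked median was -0.23 against -0.025 for autosomal clusters, and 66.7% of the X-linked clusters were lower than Dusp9.

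Over the 9 lines Dusp9 and the X-linked deviation had a Pearson's r of 0.66 (exact permutation p = 0.0400, two-sided). Spearman's rho was 0.5 (exact permutation p = 0.178). No other relation of this kind was tested. The permutation ran over all 9 lines, so differences between groups are part of it. With X-linked and autosomal clusters of all levels, the p of Pearson's r was 0.0505 (exact permutation). Without FB2 and FB3, the lines farthest from the median deviation, r was 0.12, so the relation rests on these 2 lines. Within groups, taking deviations from the group means, r was 0.58. KAA1 had a Dusp9 level close to that of FB2 with an X-linked deviation of -0.048. Klhl13, another X-linked gene known in mESC for restraining differentiation through the pathway, was listed at 8.93 in all mESCWM lines, at 8.68, 8.27 and 8.93 in KAA1, KAA2 and KAA3, and at 8.93, 9.93 and 9.61 in FB1, FB2 and FB3. It was highest in FB2 and FB3, the lines with the highest X-linked deviation. Its value was identical, at 8.9349, in WM1, WM3, KAA3 and FB1, and the reason was not tested. The part of the X-linked level in the Dusp9 difference was not tested.

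**Figure D2:**
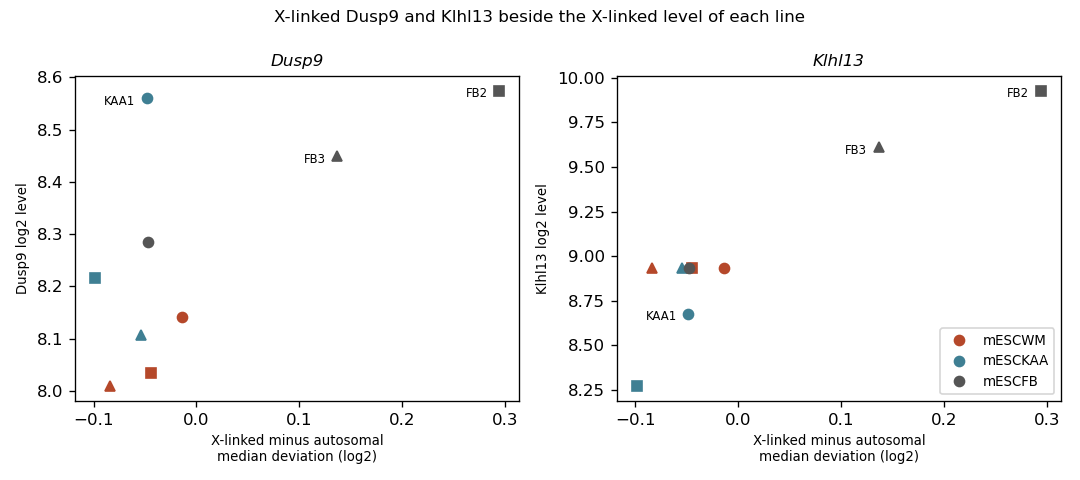
Log2 level of Dusp9 (left) and Klhl13 (right) against the X-linked minus autosomal median deviation (log2) of each line, 1 point per line, coloured by group, with circle, square and triangle for the lines numbered 1, 2 and 3. FB2 and FB3 lie to the right at 0.29 and 0.14, and KAA1 has a Dusp9 level of 8.56 without an upward X-linked deviation.

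Etv4 and Etv5, ETS factors of the same subfamily, did not shift together. Etv4, on chromosome 11, was at 7.17, 7.40 and 7.77 in WM1, WM2 and WM3, against 8.35, 7.61 and 7.48 in KAA1, KAA2 and KAA3 and 7.98, 7.56 and 7.62 in FB1, FB2 and FB3. WM1 and WM2 were the lowest of all lines, while WM3 lay within the range of the others. The difference was -0.27 for mESCWM minus mESCFB and -0.36 for mESCWM minus mESCKAA (SE 0.244 each). KAA1 and FB1, the lines with the highest primitive endoderm markers, also had the highest Etv4. Without these lines the differences were -0.14 and -0.098, and the part of those cells in the Etv4 level was not tested.

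Etv5, on chromosome 16, was measured by 2 clusters that carry the same RefSeq transcript. Cluster 10363901 was at 8.25, 8.51 and 8.30 in WM1, WM2 and WM3, 8.42, 8.16 and 8.03 in KAA1, KAA2 and KAA3, and 8.52, 8.39 and 8.08 in FB1, FB2 and FB3. Cluster 10438626 was at 9.85, 9.96 and 9.93 in WM1, WM2 and WM3, 10.24, 9.67 and 9.66 in KAA1, KAA2 and KAA3, and 10.06, 9.85 and 9.78 in FB1, FB2 and FB3. Groups overlapped in both, and KAA1 and FB1 were again the highest lines of the second cluster. mESCWM minus mESCFB was 0.024 (SE 0.143) and 0.016 (SE 0.157) for the 2 clusters, and mESCWM minus mESCKAA was 0.15 and 0.058. Their r over the 9 lines was 0.79.

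**Figure D3:**
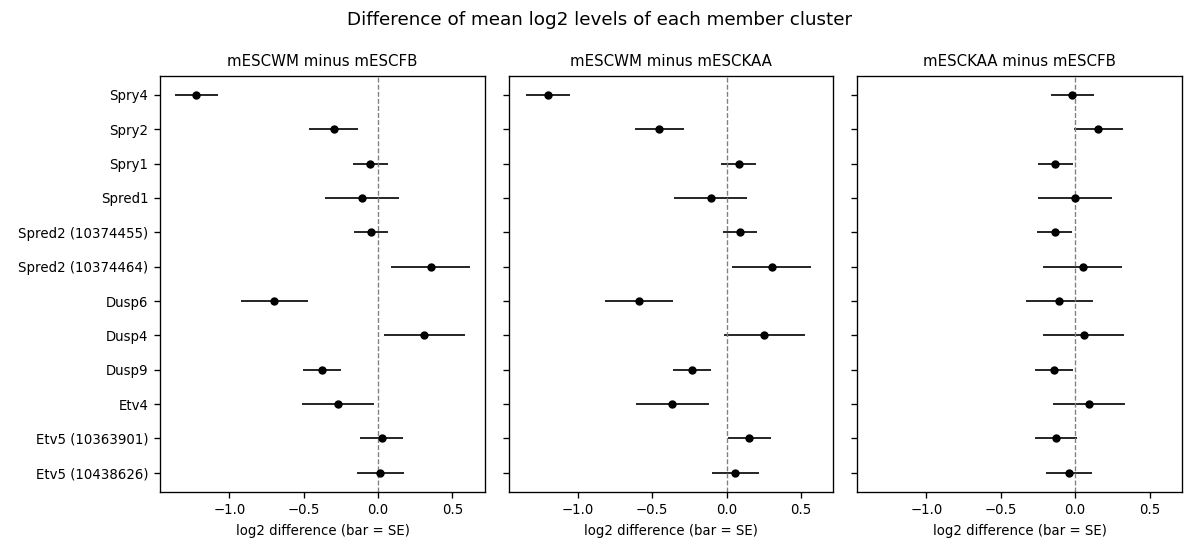
Difference of mean log2 levels (horizontal axis) of each member cluster for mESCWM minus mESCFB, mESCWM minus mESCKAA and mESCKAA minus mESCFB, with bars of 1 SE from the fit over all 9 lines. Spry4 lies at -1.22 and -1.20 in the comparisons with mESCWM and at -0.020 between mESCKAA and mESCFB.

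Counted over the set, 3 of the 12 clusters (Spry4, Dusp6 and Dusp9) were lower in mESCWM than in mESCFB with no overlap between lines. The same held for 4.55% of the clusters with a gene and 7.19% of those at or above the median level, where all members lie. Against mESCKAA, 2 clusters (Spry4 and Spry2) were lower with no overlap, where 4.63% of the clusters were and 4.58% of those at or above the median. No member cluster was higher with no overlap in either comparison, where 3.58% of all clusters were against mESCFB and 4.03% against mESCKAA. At or above the median level these shares were 4.05% and 6.16%. On the mean, 8 of 12 were lower than in mESCFB (48.3% of all, 52.8% at or above the median). Against mESCKAA, 6 of 12 were lower (52.1% of all, 44.8% at or above the median). Both comparisons use the same mESCWM lines, and Spry4 chose the set, so nothing further is read from these counts. They describe a set in which few members had low levels in mESCWM and most did not.

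The comparison of mESCKAA with mESCFB, which asks whether IVF with culture in KSOM under low O2 left a difference in these genes, did not enter the choice of the set. No member passed limma's threshold (adjusted p under 0.05), as was true of all 23410 clusters, and none reached an unadjusted p under 0.05, which 1126 clusters (4.81%) did. The rank product, a test of ranked differences named in the methods of the study, called none of the members and 22 clusters in all (0.094%). No member cluster was free of overlap between mESCKAA and mESCFB, where 8.08% of clusters were, and 8 of 12 were lower on the mean, against 47.5% of all clusters and 60.4% of those at or above the median level, where all members lie. The largest differences in size were 0.15 for Spry2 (95% interval -0.22 to 0.53, adjusted p = 0.931), -0.14 for Dusp9 (-0.43 to 0.15, adjusted p = 0.919), and -0.14 for both Spry1 (-0.40 to 0.13) and Spred2 cluster 10374455 (-0.40 to 0.13), each with an adjusted p of 0.918.

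For Dusp6 the difference between mESCKAA and mESCFB was -0.11 (-0.62 to 0.41), for Etv4 0.094 (-0.46 to 0.65), for Dusp4 0.056 (-0.56 to 0.68) and for Spred1 -0.0015 (-0.56 to 0.56). Spred2 cluster 10374464 gave 0.052 (-0.55 to 0.66), and the Etv5 clusters gave -0.13 (-0.45 to 0.20) and -0.042 (-0.40 to 0.32). All adjusted p were at or above 0.918, and the intervals do not show that the groups were alike: those of Spred1, Dusp4 and Spred2 cluster 10374464 reached beyond 0.5 in both directions. Dusp9 was at -0.28 without KAA1 and at -0.35 without KAA1 and FB1, and its adjusted p (limma) was at or above 0.738 in every setting tried.

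The members differed in how much they varied between lines of 1 group. The pooled SD within groups was 0.389 for Dusp4, 0.379 for Spred2 cluster 10374464, 0.351 for Spred1, 0.347 for Etv4 and 0.321 for Dusp6, against a median of 0.162 over the clusters at or above the median level. For Spry4 it was 0.194, for Dusp9 0.165, for Spry1 0.149 and for Spred2 cluster 10374455 0.147. The spread of Dusp6 between lines was thus larger than that of Spry4, and its distance between groups smaller.

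**Figure D4:**
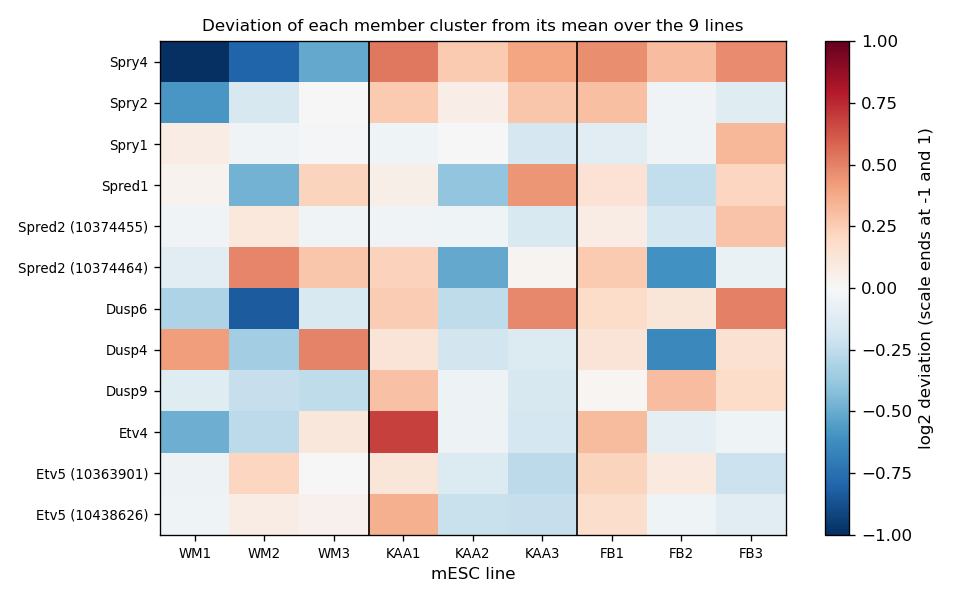
Deviation of each member cluster from its mean over the 9 lines (log2, colour, with the scale ending at -1 and 1), with lines in columns grouped as mESCWM, mESCKAA and mESCFB. Spry4 is low in all 3 mESCWM columns, and Spred1, Dusp6 and Dusp4 are low in WM2.

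Some members moved together from line to line within groups. Taking deviations from group means over the 9 lines, r was 0.95 between Spred1 and Dusp6, 0.72 between Spred1 and Dusp4, and 0.66 between Dusp6 and Dusp4. In all 3 genes the line numbered 2 was the lowest in each group, a pattern that 5.45% of the clusters with a gene and 8.76% of those at or above the median level had. Spry4 moved with Spry2 (r of 0.79) and Etv4 (0.74) within groups, and Etv4 with Etv5 cluster 10438626 (0.89). Spry4 and Dusp6 had an r of 0.79 over the 9 lines but 0.36 within groups, and Spry4 and Dusp9 0.66 and -0.073. Of the 66 pairs of clusters, 45 had an r above 0 within groups, with a median of 0.23. These pairs include the Etv5 clusters with each other (0.80) and the Spred2 clusters with each other (0.48). The share of positive pairs was not computed for clusters outside the set, so nothing is read from this count. The values of a pair come from the same arrays and lines, and these correlations are given as a description.

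Among 10930 clusters of a single symbol at or above the median level, those most like Spry4 over the 9 lines were Polr3d, a subunit of RNA polymerase III, and Prpf4, a splicing factor, each with an r of 0.96, then Cyb5d1 (0.96), the ETS factor Etv2 (0.95) and Dpy30 (0.94), a subunit of histone methyltransferase complexes. Etv2 was at 4.75, 4.82 and 4.97 in WM1, WM2 and WM3, against 5.24, 5.14 and 5.15 in KAA1, KAA2 and KAA3 and 5.18, 5.25 and 5.37 in FB1, FB2 and FB3. Its levels in mESCWM lay below those of the other groups without overlap, over a narrower range than Spry4. The most opposite were Pde1b, a calcium-dependent phosphodiesterase, at -0.97, Tmem9, Septin8 and Klhl8, each at -0.93, and Depdc1b at -0.92. Pde1b was at 6.10, 5.85 and 5.71 in WM1, WM2 and WM3, against 5.17, 5.23 and 5.18 in KAA1, KAA2 and KAA3 and 5.31, 5.26 and 5.34 in FB1, FB2 and FB3. WM1 was the highest line for Pde1b and the lowest for Spry4. Spry2 ranked 231 of these clusters in likeness to Spry4, Dusp6 ranked 246 and Spry1 ranked 5837. An r over the 9 lines includes the difference between mESCWM and the other groups, on which Spry4 was chosen. For genes outside the set r was not taken within groups, so nothing further is read from these ranks.

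The genes that carry the ERK signal differed little between groups. Of 23 genes listed from Fgf4 and its receptors to ERK, 17 were measured by a cluster of a single symbol, and the others were not analysed here. In mESCWM minus mESCFB, 7 were higher and 10 lower, with a median of -0.036 (0.0046 over all clusters). In mESCWM minus mESCKAA, 13 were higher and 4 lower, with a median of 0.089 (-0.0068 over all), and in mESCKAA minus mESCFB 6 were higher and 11 lower, with a median of -0.041 (0.0067 over all). None had an unadjusted p under 0.05 in any comparison, where 5.89%, 6.29% and 4.81% of all clusters did. Map2k2, which encodes a MEK kinase, had the smallest p in both comparisons with mESCWM, at 7.57, 7.59 and 7.77 in WM1, WM2 and WM3, against 7.83, 7.93 and 7.67 in KAA1, KAA2 and KAA3 and 7.84, 7.87 and 7.82 in FB1, FB2 and FB3. The mESCWM lines were below all mESCFB lines by a small distance, with a difference of -0.20 (SE 0.0906; limma, adjusted p = 0.819).

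Other negative regulators of the pathway lay on both sides of 0. Of 18 such genes, 14 were higher and 4 lower in mESCWM than in mESCFB (median 0.098), 12 were higher and 6 lower than in mESCKAA (median 0.076), and 9 were higher and 9 lower in mESCKAA than in mESCFB (median 0.0027). Over all clusters 48.3%, 52.1% and 47.5% were lower in the same order. At an unadjusted p under 0.05 there were 2 in each comparison, where 5.89%, 6.29% and 4.81% of all clusters were. None passed limma's adjusted threshold. Cblb, a ubiquitin ligase that acts on activated receptors, was at 6.86, 6.94 and 6.58 in WM1, WM2 and WM3, against 6.66, 6.45 and 6.16 in KAA1, KAA2 and KAA3 and 6.58, 6.30 and 6.27 in FB1, FB2 and FB3. It was higher in mESCWM than in mESCFB by 0.41 with WM3 and FB1 nearly level, and its adjusted p was 0.819 (limma). Il17rd, a membrane inhibitor of fibroblast growth factor signaling, was at 7.58, 7.05 and 6.78 in WM1, WM2 and WM3, against 6.64, 6.65 and 6.77 in KAA1, KAA2 and KAA3 and 6.90, 6.67 and 6.82 in FB1, FB2 and FB3. WM1 was far above the other lines, and WM3 was just above KAA3 and just below FB3. Dusp2 and Klhl13 had the smallest p between mESCKAA and mESCFB, with differences of 0.45 and -0.86 and an adjusted p of 0.918 each (limma). Levels of Dusp2 were low, at 3.60 to 4.38 in all lines, where the median of clusters with a gene was 4.67. Klhl13 was also the lowest of the list in mESCWM minus mESCFB, at -0.56 (limma, adjusted p = 0.819).

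Other genes listed as ERK-responsive were counted in the same way. The list includes Elk1, Elk3 and Elk4, factors whose proteins ERK acts on. Their differences were -0.14, 0.19 and -0.12 for mESCWM minus mESCFB, and 0.12, -0.030 and -0.16 for mESCWM minus mESCKAA. Of 14 listed genes 13 were measured (Spp1 was not analysed here), and 4 were higher and 9 lower than in mESCFB (median -0.14), 2 higher and 11 lower than in mESCKAA (median -0.16), where 48.3% and 52.1% of all clusters were lower, and 8 higher and 5 lower in mESCKAA than in mESCFB (median 0.043). In mESCKAA minus mESCFB 47.5% of all clusters were lower. None of the listed genes passed limma's adjusted threshold. At an unadjusted p under 0.05 there were 2, 3 and 0 in the same order, where 5.89%, 6.29% and 4.81% of all clusters were. Ier2, an immediate early gene, was at 7.91, 8.03 and 7.62 in WM1, WM2 and WM3, against 8.22, 8.45 and 8.12 in KAA1, KAA2 and KAA3 and 8.31, 8.13 and 8.12 in FB1, FB2 and FB3. Its mESCWM levels lay below those of both groups without overlap, by -0.33 against mESCFB and -0.41 against mESCKAA (SE 0.130 each; limma, adjusted p = 0.819 and 0.771).

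Plaur, the urokinase receptor, was at 7.56, 7.32 and 8.15 in WM1, WM2 and WM3, against 8.53, 8.26 and 8.35 in KAA1, KAA2 and KAA3 and 8.41, 7.92 and 8.30 in FB1, FB2 and FB3. The mESCWM lines were below all mESCKAA lines, with a difference of -0.70 (SE 0.213; limma, adjusted p = 0.771), and WM3 overlapped with mESCFB. Ier3 went against the list, at 8.63, 8.02 and 8.54 in WM1, WM2 and WM3, against 7.87, 7.66 and 8.18 in KAA1, KAA2 and KAA3 and 7.87, 8.08 and 8.16 in FB1, FB2 and FB3, and was higher in mESCWM than in mESCKAA by 0.49 (limma, adjusted p = 0.771). Fos varied by line more than by group, with 8.09 in KAA2 and 5.11 to 6.51 in the other 8 lines. Markers of the primed epiblast, a state that mESC enter with ERK signaling, averaged 6.12 to 6.54 in mESCWM, 6.37 to 6.83 in mESCKAA and 6.44 to 6.77 in mESCFB. On the mean, 7 of 8 were lower in mESCWM than in mESCFB (48.3% of all clusters) and 8 of 8 lower than in mESCKAA (52.1%). Only Otx2 had an unadjusted p under 0.05 in these comparisons, at -0.79 and -0.69 (limma, adjusted p = 0.819 and 0.771). Some differences were near 0, such as -0.020 and -0.034 for Pou3f1. The part of this state in the levels of the members was not tested.

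**Figure D5:**
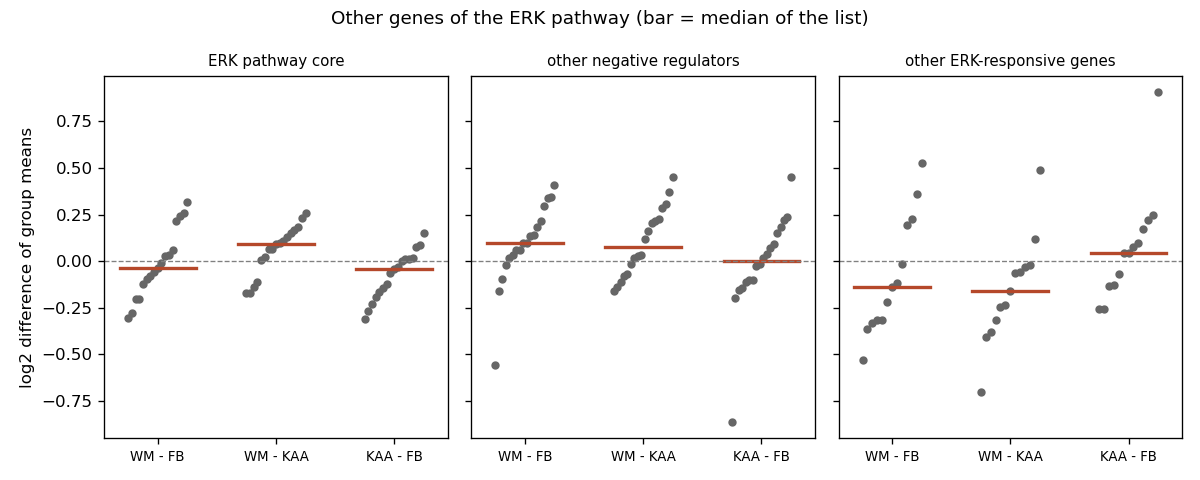
Log2 difference of group means (vertical axis) for each measured gene of the lists of the ERK pathway core, other negative regulators and other ERK-responsive genes, for mESCWM minus mESCFB, mESCWM minus mESCKAA and mESCKAA minus mESCFB, with a bar at the median of the list. The medians of the ERK-responsive genes are -0.14, -0.16 and 0.043, and those of the negative regulators 0.098, 0.076 and 0.0027.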

How the data were processed

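RNA of 9 mESC lines was hybridised to 1 Affymetrix Mouse Gene ST array each. The authors made the deposited log2 values by RMA (affylmGUI per the methods, with Affymetrix Expression Console and R 3.1.0 in the submitters' processing notes), which corrects the background, normalises between arrays and summarises probes to 1 value per transcript cluster, so that differences between arrays in total signal are removed. No count or depth exists, and all 9 columns were mapped to a line (0 left over). Gene symbols came from the platform annotation, with 12146 clusters without a gene left out and 1621 shared by several symbols kept in the tests but not named.

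Group means of all 9 lines were compared by moderated linear models (limma 3.58.1 under R 4.3.3, lmFit followed by eBayes, two-sided) and p-values were adjusted by Benjamini-Hochberg over 23410 clusters, with a threshold of 0.05. The fit was tested on simulated data. The rank product was computed with 100 permutations and a percentage of false positives under 0.05. Other tools were statmod 1.5.0, Python 3.11.15, numpy 2.4.6, pandas 2.3.3, scipy 1.17.1 and matplotlib 3.10.9. Likeness is Pearson's r over the 9 lines. The genes named are the 10 members, the 5 clusters most like and the 5 most opposite to Spry4, up to 4 genes with the smallest p of each pathway list, and Klhl13, Eif2s3y and cell type markers beside a result. Pathway lists took the cluster with the highest mean per gene. The members, lists and rules were chosen with earlier results of these data known.

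Alternatives were quantile normalisation, median centring, all clusters, clusters at or above the median level, robust and trended eBayes, only the groups compared, the replicate number as a block, the rank product, leaving out each line, leaving out FB1, KAA2 and WM3, and, chosen after seeing the data, leaving out KAA1 and FB1.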

Additional observations from a re-analysis of the deposited data

How the results depend on the processing

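Spry4 was lower in mESCWM in every setting tried, at -1.34 to -1.20 against mESCFB and -1.41 to -1.13 against mESCKAA, the first end of each being the fit without FB1, KAA2 and WM3. Leaving out 1 line gave -1.37 to -1.07 and -1.35 to -1.05. With the rank product, 21 clusters were called for mESCWM minus mESCFB, 73 for mESCWM minus mESCKAA and 22 for mESCKAA minus mESCFB, where limma called 0 in each. Leaving out 1 line gave 0 to 1 clusters past limma's adjusted threshold in both comparisons with mESCWM, the 1 without WM3, and 0 in mESCKAA minus mESCFB. The cluster past the threshold was not Spry4. The lowest adjusted p of Spry4 (limma) in any setting was 0.0778 against mESCFB and 0.0705 against mESCKAA. Member clusters at an unadjusted p under 0.05 numbered 0 to 1 in mESCKAA minus mESCFB when 1 line was left out, the 1 being Spred2 cluster 10374455 without FB2 and Dusp9 without KAA1, and also 1 without KAA1 and FB1 together (Dusp9). The r of Dusp9 with the X-linked deviation was 0.641 with clusters of all levels (exact permutation p = 0.0505). When 1 line was left out it was 0.474 (without FB2) to 0.873 (without KAA1). The exact permutation p was 0.241 without FB2, 0.00811 without KAA1 and 0.0528 to 0.0820 without each other line.

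The sign of small differences turned in some settings. For mESCKAA minus mESCFB, quantile normalisation gave 0.027 for Spry4 and 0.054 for Spred1. The fit without FB1, KAA2 and WM3 gave 0.071 for Spry4, 0.27 for Spred1, 0.055 for Dusp6 and 0.13 for Etv5 cluster 10438626, and that without KAA1 and FB1 gave -0.043 for Etv4 and 0.040 for Spred1. Etv5 cluster 10438626 gave -0.00036 with median centring for mESCWM minus mESCFB and -0.044 without FB1, KAA2 and WM3 for mESCWM minus mESCKAA. Leaving out 1 line turned, for mESCKAA minus mESCFB, Spry4 (-0.087 to 0.046), Spred1 (-0.20 to 0.22), Dusp6 (-0.27 to 0.099), Dusp4 (-0.21 to 0.19), Etv4 (-0.17 to 0.26), Spred2 cluster 10374464 (-0.18 to 0.27) and Etv5 cluster 10438626 (-0.23 to 0.057). It turned, for mESCWM minus mESCFB, Etv5 clusters 10363901 (-0.10 to 0.12) and 10438626 (-0.043 to 0.099), Spred2 cluster 10374455 (-0.17 to 0.065), Spry1 (-0.14 to 0.081) and Spred1 (-0.26 to 0.092), and for mESCWM minus mESCKAA Etv5 cluster 10438626 (-0.041 to 0.25) and Spred1 (-0.32 to 0.097). The causes were not tested.

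The labels number the lines but do not say whether lines of the same number belong together. The correlation of deviations of lines with the same number was -0.013 to 0.33 over 3 pairs in each of 3 comparisons, and 8 of 9 lines correlated best with a line of their own number, as a hint from the data. With the number as a replicate block, 0 clusters passed the adjusted threshold in all 3 comparisons, and 0 member clusters had an unadjusted p under 0.05 in mESCKAA minus mESCFB, as without it.

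With 3 lines a group, the exact permutation test of a single value cannot go below a p of 0.1, and differences of the size of those between mESCKAA and mESCFB cannot be told from 0 at this number of lines. Primitive endoderm markers were high in KAA1 and FB1, and X-linked genes in FB2 and FB3. Y-linked Eif2s3y and Uty, but not Kdm5d, were highest in WM3, KAA2 and FB1.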
